A study of Mus musculus with 11 samples.

Results

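The interferon regulatory factors are a family of transcription factors that share a DNA-binding domain and bind interferon-stimulated response elements or related sequences. IRF3, IRF5 and IRF7 are activated downstream of nucleic acid sensors and Toll-like receptors and induce interferons, while IRF9 is the DNA-binding part of the complex that carries the type I interferon signal to the nucleus. IRF1 and IRF2 bind the same elements, IRF1 mostly as an activator and IRF2 mostly as its antagonist. IRF4 and IRF8 are the haematopoietic members, which bind DNA weakly alone and act with partners such as PU.1 or BATF-JUN dimers, and IRF4 is induced by the antigen receptor in T cells.

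The family was represented by Irf1, Irf2, Irf3, Irf4, Irf5, Irf7, Irf8 and Irf9. Members were taken as the probe sets annotated with exactly 1 gene symbol that was among these names. This gave 14 of the 45101 probe sets on the array, or 8 of the 18194 genes tested. Irf3 had 4 probe sets, Irf4, Irf5 and Irf8 had 2 each, and the other members had 1 each. A gene was tested by its brightest probe set, and the others are given beside it.

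Expression was measured on 11 Affymetrix mouse arrays of splenic T cells, which had been purified by removing other cells with magnetic beads. The mice were C57BL6 females aged 3 to 4 months, either wild type or crbn-/- (knockout), a deletion of the gene of cereblon, the part of a CUL4 ubiquitin ligase that selects its substrates. Naive cells were collected unstimulated, and activated cells had been held for 12 hours with plate-bound anti-CD3 at 5 µg/ml and soluble anti-CD28 at 1 µg/ml. Naive cells gave 3 arrays of each genotype; activated cells gave 2 wild-type and 3 knockout arrays. No group was cultured for the same time without the antibodies, so stimulation and time in culture cannot be told apart. Arrays within a group are labelled biological replicates but are not tied to animals, and p-values measure the spread between these arrays.

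Values are log2 expression levels, so a difference of 1 is a doubling, and differences are activated minus naive or knockout minus wild type. A difference passed the test where its limma p, adjusted by the Benjamini-Hochberg method over all 18194 genes, was under 0.05. The lower quartile of an array lay between 4.57 and 4.68, and levels under 4.57 are treated as near background; no member was below 4.57 in every array. T cell markers were high in every array: Cd3d, a chain of the T cell receptor complex, lay between 12.13 and 12.98 and Cd3e between 11.14 and 11.97. Crbn lay between 8.58 and 9.07 in the knockout and between 9.47 and 10.21 in the wild-type arrays, so its probe set still gave signal well above 4.57 in the knockout; where the probe set lies relative to the deletion is not known here, so this checks the labels only in part. The difference passed the limma test (naive -1.13, SE 0.085, adjusted p = 8.7e-05; activated -0.90, SE 0.095, adjusted p = 0.00405). In activated cells it was -0.78 when wild-type replicate 1 was left out (limma adjusted p = 0.0854), and it also did not pass without moderation (0.285) or with only the arrays compared (0.0593). Each array holds the RNA of a whole population, in which fewer cells of a type and less RNA per cell cannot be told apart.

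Promoter sequences are shown for the members that hold a binding motif of the interferon or T cell receptor pathways near the start site. These were Irf1, Irf2 and Irf8, which were chosen by the search itself. The windows ran from 250 bases before to 50 bases after each start in RefSeq for the assembly GRCm38.p6, and all 8 members matched with 11 windows. Both strands were searched, a site being counted once where it read the same on both. Capitals mark the motif, and all genes shown lie on the plus strand.
Irf1 gamma-activated sequence, chr11:53769909-53769947: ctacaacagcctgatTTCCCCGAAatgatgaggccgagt
Irf1 NF-kappaB consensus, chr11:53769986-53770013: ggccgagtccgggccGGGGAATCCCgct
Irf2 interferon-stimulated response element, chr8:46739495-46739528: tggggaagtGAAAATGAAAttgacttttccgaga
Irf2 gamma-activated sequence, chr8:46739506-46739544: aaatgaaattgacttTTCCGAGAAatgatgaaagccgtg
Irf2 NF-kappaB consensus, chr8:46739713-46739744: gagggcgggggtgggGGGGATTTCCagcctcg
Irf8 gamma-activated sequence, upstream copy, chr8:120736172-120736210: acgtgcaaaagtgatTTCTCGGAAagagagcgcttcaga
Irf8 gamma-activated sequence, downstream copy, chr8:120736190-120736228: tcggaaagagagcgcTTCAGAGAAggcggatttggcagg

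The gamma-activated sequence, TTCNNNGAA, is a motif of interferon gamma response genes. Counted from the start site, it began at -90 in Irf1, at -224 in Irf2 and at -171 and -153 in Irf8; 3 of the 11 member windows held it, against 8.3% of 32851 promoters searched in the same way. The interferon-stimulated response element was found in the Irf2 window alone, where it began at -241, and in 3.44% of all promoters. The NF-kappaB consensus was found in 2 of the 11 windows, close to the starts of Irf1 and Irf2, and in 8.46% of all promoters. Neither the AP-1 site, TGANTCA, nor its composite with an adjacent IRF site was in a member window; they were in 7.81% and 0.125% of all promoters, and every composite also holds an AP-1 site. The windows of Irf3, Irf4, Irf5, Irf7 and Irf9 held none of these 5 motifs. A match describes the letters of the window and is not evidence of binding, and its absence says nothing of sites elsewhere.

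Activation moved the family apart. In wild-type cells 7 of the 8 members passed the limma test, 3 higher and 4 lower, against 41.1% of all genes, of which 20.2% were higher and 20.9% lower. In knockout cells 7 of 8 also passed, 3 higher and 4 lower, against 43.2% of all genes (20.7% higher and 22.4% lower). By the brightest probe sets, Irf4, Irf8 and Irf5 were the higher ones and Irf7, Irf9, Irf2 and Irf3 the lower ones in each genotype. Irf1 did not pass in either. Another Irf3 probe set rose in each genotype and the other Irf5 probe set did not pass, as given below. The arrays of the 7 members did not overlap between the states, as was so for 57% of all genes in wild-type and 52.5% in knockout cells. The median difference over the 8 members was -0.17 in wild-type cells, where that of all genes was 0.06; it was -0.23 in knockout cells, where that of all genes was -0.03. Centring each array on its median raised the share of called genes that were higher from 49.1% to 61.6% in wild-type and from 48% to 58% in knockout cells.

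**Figure D1:**
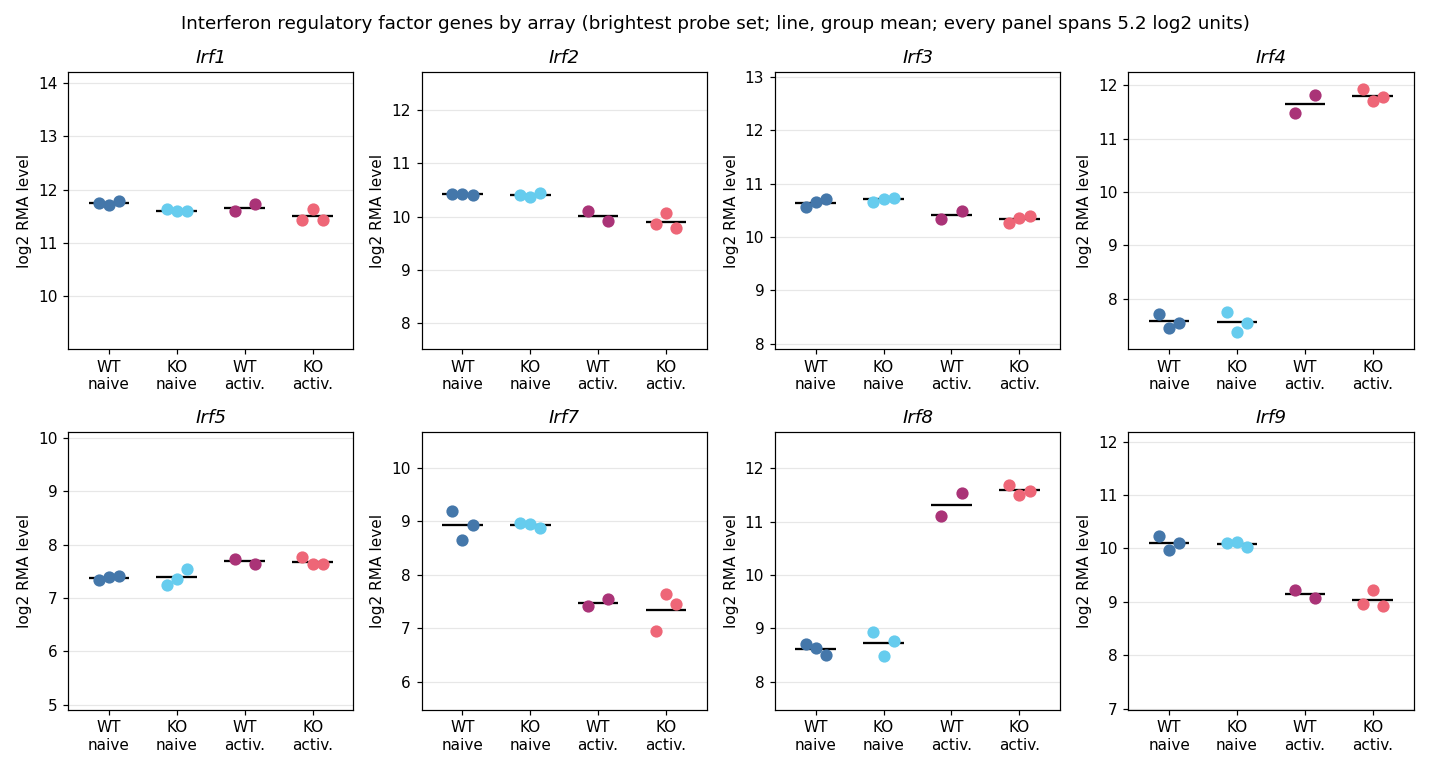
Log2 expression level of each of the 8 members on the y axis, 1 point per array and 1 column per group, with the group mean as a line; every panel spans the same number of log2 units. Irf4 rose from group means near 7.57 to 11.64 in wild-type and 11.80 in knockout cells, Irf8 from 8.61 and 8.73 to 11.32 and 11.59, and Irf7 and Irf9 fell in each genotype.

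Irf4 had the largest change of the family. IRF4 is an early product of T cell receptor signalling, needed for the growth and effector differentiation of activated T cells. Probe set 1421173_at gave 7.72, 7.45 and 7.55 in wild-type naive arrays and 7.75, 7.38 and 7.55 in knockout naive arrays. In activated cells it gave 11.47 and 11.82 in wild-type arrays and 11.92, 11.70 and 11.77 in knockout arrays. Every activated array was thus above every naive array, and the genotypes overlapped in each state. The rise was 4.07 (SE 0.130, 16.8-fold, limma adjusted p = 5.0e-10) in wild-type and 4.24 (SE 0.116, 18.9-fold, limma adjusted p = 8.0e-11) in knockout cells. By size of change Irf4 ranked 9 among the 18194 genes in wild-type and 13 in knockout activation.

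The other Irf4 probe set, 1421174_at, rose less on the log2 scale. It gave 5.26, 5.13 and 5.57 in naive wild-type, 5.06, 5.19 and 4.99 in naive knockout, 6.70 and 7.46 in activated wild-type and 7.32, 7.29 and 7.21 in activated knockout arrays. Again no activated array overlapped a naive one. In a fit of all 34958 probe sets with 1 symbol, of which 37.8% passed in wild-type and 41.6% in knockout activation, the rise was 1.76 (SE 0.179, limma adjusted p = 4.0e-06) in wild-type and 2.19 (SE 0.160, limma adjusted p = 1.1e-07) in knockout cells. Direction was the same in the 2 probe sets, and the size of the change depended on which was read.

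Irf8, best known for monocyte, dendritic cell and B cell development, also rose. Probe set 1416714_at gave 8.70, 8.63 and 8.51 in wild-type naive and 8.93, 8.48 and 8.76 in knockout naive arrays. It gave 11.10 and 11.54 in activated wild-type and 11.68, 11.51 and 11.57 in activated knockout arrays. The states did not overlap, and wild-type activated replicate 1 was the lowest activated array. Irf8 was 6.53-fold higher in activated wild-type cells (log2 2.71, SE 0.141, limma adjusted p = 1.6e-08) and 7.26-fold higher in activated knockout cells (log2 2.86, SE 0.126, limma adjusted p = 1.6e-09). The probe set 1448452_at gave 2.61 (SE 0.144, limma adjusted p = 2.4e-08) and 2.92 (SE 0.129, limma adjusted p = 1.6e-09).

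Because Irf8 and Irf4 are also expressed by other spleen cells, markers of those cells were read beside them. Marker levels were summed on the linear scale and the log2 of the sum was taken, so a sum mostly follows its brightest markers. For 10 measured B cell markers of 12 it was 13.59 to 13.73 in naive wild-type and 13.75 to 13.99 in naive knockout arrays. In activated arrays it was 12.01 to 12.40 in wild type and 12.44 to 12.72 in knockout. Ighm alone had means of 13.50 and 13.63 in naive and 11.93 and 12.27 in activated cells, in the order wild type and knockout. Of the 10 markers, 0 rose and 5 fell in wild-type cells and 0 rose and 6 fell in knockout cells by limma. Of all genes, 20.9% fell in wild-type and 22.4% in knockout activation. Differences were positive for 2 of the 10 markers in wild-type and 1 in knockout cells. For 14 of 14 macrophage and monocyte markers the sum was 12.46 to 12.49 in wild-type and 12.53 to 12.67 in knockout naive arrays. In activated arrays it was 11.43 to 11.46 and 11.41 to 11.44. Of the 14, 0 rose and 11 fell in each genotype, beside the shares of all genes just given. The brightest, Ctss, had means of 11.96 and 12.09 in naive and 10.89 and 10.83 in activated cells. Plasma cell markers, 6 of 6, summed to 12.79 to 13.42 over the naive arrays and to 10.29 to 10.61 over the activated arrays. Of these, 0 rose and 3 fell in each genotype, and Jchain and Igha were the brightest. The part of B cells, macrophages and plasma cells in the levels of Irf4 and Irf8 was not tested.

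Dendritic cell markers moved in both directions. The sum of 9 measured markers of 10 was 9.15 to 9.25 in naive wild-type, 9.27 to 9.41 in naive knockout, 9.84 to 10.09 in activated wild-type and 10.32 to 10.46 in activated knockout arrays. The chemokine genes Ccl22 and Ccl17 rose by 2.70 and 0.65 in wild-type and by 3.27 and 1.55 in knockout cells, while Itgax, which encodes CD11c, changed by -0.87 and -1.06. Among the markers of these cell types, Itgam was below 4.57 in all 11 arrays, Ebf1 in 10, Xcr1 in 5, Cr2 in 4 and C1qb in 1. The part of dendritic cells in the levels of Irf4 and Irf8 was not tested.

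Irf5, which acts downstream of Toll-like receptors and MyD88, changed little. Probe set 1449678_at gave 7.34, 7.39 and 7.42 in naive wild-type, 7.25, 7.36 and 7.55 in naive knockout, 7.74 and 7.64 in activated wild-type and 7.77, 7.63 and 7.64 in activated knockout arrays. Activated arrays lay above naive arrays of their genotype, by 0.31 (SE 0.092, limma adjusted p = 0.0171) in wild-type and 0.29 (SE 0.083, limma adjusted p = 0.0102) in knockout cells. The other probe set, 1460231_at, did not pass, with 0.06 (limma adjusted p = 0.713) and 0.12 (limma adjusted p = 0.344). In the mean of the 2 probe sets the wild-type difference was 0.18 (limma adjusted p = 0.0922). Without wild-type activated replicate 1 it was 0.26 (limma adjusted p = 0.108), and in knockout cells it was 0.23 without naive replicate 1 and 0.25 without activated replicate 1 (limma adjusted p = 0.0561 and 0.0508).

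**Figure D2:**
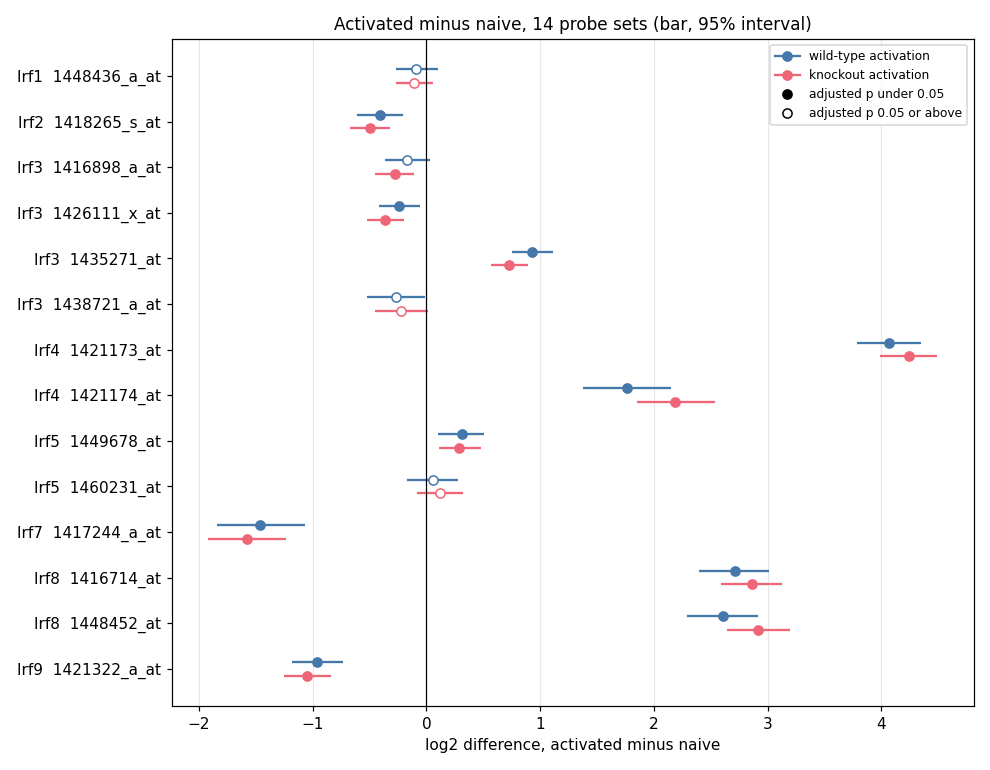
Activated minus naive difference (log2, x axis) of all 14 member probe sets (y axis) in wild-type and knockout cells, from the fit over all probe sets, with 95% intervals; filled points passed at an adjusted p under 0.05. The Irf4 and Irf8 probe sets lie to the right at 1.76 or more, Irf7 and Irf9 to the left, and the 4 Irf3 probe sets on both sides of 0.

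Irf7 fell the most. IRF7 is the main amplifier of type I interferon production and is itself induced by interferon. Probe set 1417244_a_at gave 9.20, 8.66 and 8.93 in wild-type naive and 8.97, 8.95 and 8.87 in knockout naive arrays, against 7.41 and 7.54 in activated wild-type and 6.95, 7.65 and 7.45 in activated knockout arrays. Every activated array was below every naive array. The difference was -1.46 (SE 0.179, 2.74-fold lower, limma adjusted p = 2.1e-05) in wild-type and -1.58 (SE 0.160, 2.99-fold lower, limma adjusted p = 2.3e-06) in knockout cells.

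Irf9 fell as well. Its probe set 1421322_a_at gave 10.23, 9.98 and 10.11 in naive wild-type, 10.11, 10.13 and 10.02 in naive knockout, 9.23 and 9.07 in activated wild-type and 8.96, 9.22 and 8.93 in activated knockout arrays. Naive and activated arrays were again apart. On activation it was 1.94-fold lower in wild-type cells (log2 -0.96, SE 0.104, limma adjusted p = 7.4e-06); in knockout cells it was 2.07-fold lower (log2 -1.05, SE 0.093, limma adjusted p = 6.9e-07).

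Irf3, the constitutive sensor-activated member, gave a result that depended on the probe set. The brightest, 1426111_x_at, gave 10.56, 10.66 and 10.72 in naive wild-type, 10.66, 10.72 and 10.73 in naive knockout, 10.33 and 10.48 in activated wild-type and 10.26, 10.36 and 10.40 in activated knockout arrays. It fell by 0.24 in wild-type (SE 0.081, limma adjusted p = 0.0281) and by 0.36 in knockout cells (SE 0.072, limma adjusted p = 0.00102). Probe set 1435271_at rose instead, from 6.81, 6.93 and 6.89 to 7.79 and 7.82 in wild-type and from 6.97, 6.92 and 7.04 to 7.61, 7.80 and 7.73 in knockout arrays. Its rise was 0.93 (SE 0.082, limma adjusted p = 1.2e-06) and 0.73 (SE 0.074, limma adjusted p = 2.0e-06).

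The remaining Irf3 probe sets had small negative differences. Probe set 1416898_a_at gave -0.17 in wild-type (limma adjusted p = 0.172) and -0.28 in knockout cells (limma adjusted p = 0.0118). Probe set 1438721_a_at gave -0.27 and -0.22 (limma adjusted p = 0.104 and 0.129). In the mean of the 4 probe sets the Irf3 difference was 0.06 in wild-type (limma adjusted p = 0.557) and -0.03 in knockout cells (limma adjusted p = 0.782), so the arrays gave no single direction for Irf3. For the brightest probe set alone, the wild-type call was also lost after centring on the median (-0.17), without wild-type activated replicate 1 (-0.17), naive replicate 2 (-0.24) or naive replicate 3 (-0.21), and when only the arrays compared were used (-0.24).

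Irf2 fell by a smaller amount. Probe set 1418265_s_at gave 10.43, 10.42 and 10.41 in naive wild-type, 10.40, 10.37 and 10.44 in naive knockout, 10.10 and 9.92 in activated wild-type and 9.87, 10.07 and 9.79 in activated knockout arrays, and the states did not overlap. The fall was 0.41 in wild-type (SE 0.090, 1.33-fold, limma adjusted p = 0.00233) and 0.50 in knockout cells (SE 0.081, 1.41-fold, limma adjusted p = 1.8e-04). Irf1, a gene induced by interferon gamma, did not pass at 12 hours. Probe set 1448436_a_at gave 11.74, 11.71 and 11.78 in wild-type naive and 11.59 and 11.72 in wild-type activated arrays, which overlapped, a difference of -0.09 (SE 0.084, limma adjusted p = 0.446). In knockout arrays it gave 11.63, 11.59 and 11.60 against 11.43, 11.64 and 11.43, a difference of -0.11 (SE 0.075, limma adjusted p = 0.298).

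The knockout was then set against the wild type in each state. None of the 8 members passed in naive cells, where 0.148% of all genes did, nor in activated cells, where 0.0605% did, nor for the states averaged, where 0.104% did, all by limma. By the brightest probe sets, at an unadjusted limma p under 0.05 the number of members was 0 for naive cells, 0 for activated cells and 1 for the states averaged, against 14.5%, 6.9% and 7.13% of all genes. Genotype and activation comparisons share arrays, so their values are not independent of each other.

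By its brightest probe set, Irf4 differed by -0.02 between naive knockout and wild-type cells (95% interval -0.27 to 0.23, limma adjusted p = 0.961). Between activated cells it differed by 0.15 (-0.13 to 0.44, limma adjusted p = 0.878). Its probe set 1421174_at gave -0.24 in naive and 0.19 in activated cells (limma adjusted p = 0.513 and 0.856). For Irf7 the naive difference was -0.00 (-0.35 to 0.35, limma adjusted p = 0.998) and the activated one -0.13 (-0.51 to 0.26, limma adjusted p = 0.942). For Irf2, Irf3, Irf5 and Irf9 the brightest probe sets gave between -0.02 and 0.05 in naive cells. In activated cells they gave between -0.12 and -0.01. The other Irf5 probe set, 1460231_at, gave 0.18 in naive cells (limma adjusted p = 0.41). In activated cells it gave 0.24 (95% interval 0.02 to 0.47, limma adjusted p = 0.596). Irf3 1438721_a_at gave 0.17 and 0.22 (limma adjusted p = 0.485 and 0.708). Irf3 1416898_a_at and 1435271_at gave 0.05 and 0.10 in naive and -0.06 and -0.09 in activated cells. The intervals give the sizes that these arrays leave possible.

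Among the brightest probe sets, Irf1 had the only unadjusted limma p under 0.05, with the states averaged. Its naive knockout arrays, at 11.63, 11.59 and 11.60, lay below the wild-type arrays at 11.74, 11.71 and 11.78 without overlap; 20.4% of all genes had naive arrays that did not overlap. The difference was -0.14 in naive cells (95% interval -0.30 to 0.02, limma adjusted p = 0.424) and -0.16 in activated cells, whose arrays overlapped (-0.34 to 0.02, limma adjusted p = 0.763). With the states averaged it was -0.15 (-0.27 to -0.03, limma adjusted p = 0.608). Probe sets other than the brightest had larger averaged differences in the fit of all probe sets. Irf8 1448452_at gave 0.29 (0.08 to 0.49), Irf5 1460231_at 0.21 (0.06 to 0.36) and Irf3 1438721_a_at 0.20 (0.02 to 0.37). Their unadjusted limma p was 0.0113, 0.0108 and 0.031 (adjusted 0.446, 0.444 and 0.56). In activated cells the unadjusted limma p was 0.00905 for this Irf8 and 0.0381 for this Irf5 probe set.

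In activated cells Irf8 had the largest genotype difference among the brightest probe sets. Probe set 1416714_at differed by 0.11 in naive (95% interval -0.16 to 0.39, limma adjusted p = 0.73) and 0.26 in activated cells (-0.04 to 0.57, limma adjusted p = 0.769), and the arrays of the genotypes overlapped in each state. Probe set 1448452_at gave 8.15, 7.81 and 7.79 in wild-type naive and 8.08, 7.87 and 8.19 in knockout naive arrays. In activated cells it gave 10.36 and 10.69 in wild-type arrays, below 11.06, 10.77 and 11.07 in knockout arrays without overlap, as was so for 19.4% of all genes. Its activated difference was 0.44 (95% interval 0.13 to 0.75, limma adjusted p = 0.416). None of the 14 probe sets passed in a genotype comparison, against 0.157% of all probe sets in naive, 0.0629% in activated cells and 0.154% for the states averaged. The sums of B cell and dendritic cell markers given above were also higher in knockout than in wild-type arrays of the same state, without overlap. So were those of NK cell markers (naive 9.30 to 9.86 against 9.25 to 9.26, activated 9.11 to 9.27 against 9.01 to 9.08). Macrophage sums were higher without overlap in naive cells only. Platelet sums were lower in activated knockout arrays (9.41 to 9.54 against 9.59 to 9.67), and the remaining sums overlapped. In activated cells the dendritic sum moved with Ccl22 (8.98 to 9.68) and Ccl17 (6.24 to 7.06), while the median genotype difference of its 9 markers was -0.01, 4 being positive and 5 negative. Of 10 B cell markers, 10 were positive in naive (median 0.39) and 7 in activated cells (median 0.24), and 0 passed by limma in either state. The 5 measured NK cell markers were all positive in each state (medians 0.35 and 0.31), and 1 passed by limma, in naive cells. The part of these cells in the Irf8 values was not tested.

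**Figure D3:**
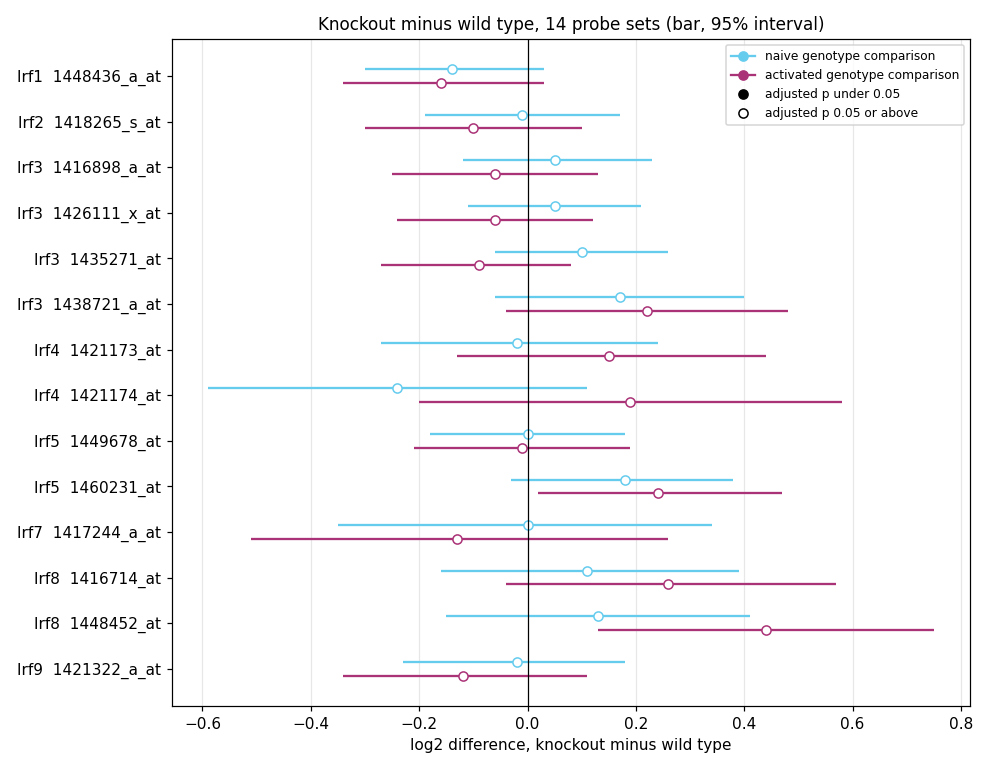
Knockout minus wild-type difference (log2, x axis) of the 14 member probe sets (y axis) in naive and activated cells, from the fit over all probe sets, with 95% intervals; a filled point would mark an adjusted p under 0.05, and none is filled. The Irf8 probe set 1448452_at in activated cells, at 0.44, lies farthest from 0.

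The response to activation was compared between genotypes by the interaction, knockout activation minus wild-type activation. None of the 8 members passed, and 0 of all genes (0%) did by limma. At an unadjusted limma p under 0.05 there were 0 members against 13.8% of all genes. The response of Irf4 differed by 0.17 (95% interval -0.21 to 0.55), of Irf8 by 0.15 (-0.26 to 0.56) and of Irf7 by -0.12 (-0.64 to 0.40), with limma adjusted p = 0.667, 0.733 and 0.831. The other members differed by -0.11 to -0.01, all by their brightest probe sets. Over the other probe sets the differences ran from -0.19 (Irf3 1435271_at) to 0.43 (Irf4 1421174_at), and none passed (limma adjusted p = 0.44 and 0.43 for these).

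Genes whose profile lay closest to a member were found by centring each gene on its own mean and taking the root mean square difference over the 11 arrays. Irf4, with a root mean square of 2.082 of its own, was nearest to the chemokine gene Ccl4 (0.161), the interferon gamma gene Ifng (0.174) and Bcat1 (0.198), which encodes a branched-chain aminotransferase. Irf8, at 1.410, was nearest to Ak7 (0.117), the prostaglandin receptor gene Ptger2 (0.148) and 2010204K13Rik (0.163). Irf7, at 0.787, was nearest to the interferon-induced gene Xaf1 (0.123), to Lxn (0.128) and to Trim12a (0.141). Irf9, at 0.515, had Abi3 (0.056), Narf (0.061) and Vamp8 (0.063).

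The flatter members had closer neighbours, as their own spread was small. Irf2, at 0.244, was nearest to Nr2c2 (0.042), Cggbp1 (0.044) and Cep192 (0.045), and Irf3, at 0.166, to Prpf38b (0.037), Med15 (0.037) and Ubac2 (0.039). For Irf5, at 0.168, they were Adap1 (0.056), Gnat2 (0.067) and Gm12169 (0.068), and for Irf1, at 0.111, Pdzk1ip1 (0.046), Dxo (0.049) and Cyhr1 (0.051). These are descriptions of likeness over arrays that fall into 2 states.

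Transcripts of proteins that IRFs bind to or act with mostly fell. Like the marker lists above, this list and those below were chosen with earlier results of these data known. The shares of all genes beside their counts are background and not a test. Of 17 measured partners of 18 listed, 3 rose and 10 fell in wild-type cells and 4 rose and 11 fell in knockout cells, with medians of -0.43 and -0.55. Of all genes, 20.2% rose and 20.9% fell in wild-type cells, with 20.7% and 22.4% in knockout cells. The AP-1 genes Junb and Jun, whose products bind DNA with BATF and IRF4, changed by -3.04 and -1.85 in wild-type (limma adjusted p = 1.8e-08 and 5.7e-07) and by -2.71 and -1.89 in knockout cells (adjusted p = 7.4e-09 and 8.3e-08). Def6, which encodes an IRF4-binding protein of T cells, changed by -1.77 and -1.94 (limma adjusted p = 6.1e-08 and 4.5e-09). The means of Batf and Batf3 were higher after activation. Batf went from 9.03 to 9.37 in wild-type and from 9.10 to 9.60 in knockout cells. Batf3 went from 6.35 to 6.81 and from 6.58 to 7.28. The wild-type activated arrays of Batf lay apart, at 8.95 and 9.79, and the lower one was within the naive range. The rises of the list changed with the setting: 1 in place of 3 in wild-type cells with array weights, without variance moderation, or without activated replicate 2, naive replicate 1 or naive replicate 3, and 2 in place of 4 in knockout cells without moderation, activated replicate 1 or naive replicate 2.

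Upstream of IRF3, IRF5 and IRF7, 17 of 19 listed sensors, adaptors and kinases were measured. In wild-type cells 0 rose and 8 fell by limma, with a median of -0.28, and in knockout cells 3 rose and 9 fell, with a median of -0.29. Over all genes 41.1% passed in wild-type cells (20.2% higher, 20.9% lower) and 43.2% in knockout cells (20.7% and 22.4%). The RNA sensor gene Ddx58 (RIG-I) went from 9.99 to 8.35 in wild-type and from 9.97 to 7.88 in knockout means, a change of -1.65 and -2.10 (limma adjusted p = 1.7e-07 and 3.8e-09). Dhx58, a relative of RIG-I, changed by -1.65 and -1.43 and Ikbke, which encodes an IRF3 and IRF7 kinase, by -1.27 and -1.58 (limma adjusted p = 8.4e-05, 8.3e-05, 2.5e-06 and 6.9e-08). The rises numbered 1 in wild-type cells after centring or quantile normalization, and 1 in knockout cells without activated replicate 1 or 3 or naive replicate 2 or 3.

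Among interferons, their receptors and the JAK-STAT arm, 13 of 14 genes were measured, and 3 rose and 7 fell in each genotype, with medians of -0.34 and -0.53, where 41.1% and 43.2% of all genes passed. Ifng rose from 8.58 to 12.33 in wild-type and from 8.40 to 12.62 in knockout means (log2 3.75, SE 0.188, limma adjusted p = 1.2e-08, and 4.22, SE 0.168, limma adjusted p = 8.5e-10). Socs1, a feedback inhibitor of JAK kinases, rose by 1.61 and 1.81 (limma adjusted p = 4.7e-08 and 2.9e-09). Jak1, the kinase shared by type I and type II interferon receptors, changed by -1.24 and -1.35 (limma adjusted p = 1.8e-07 and 1.4e-08).

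Targets of the type I interferon response were lower after activation. Of 18 measured genes of 20 listed, 0 rose and 15 fell in wild-type cells and 0 rose and 16 fell in knockout cells by limma, with medians of -1.02 and -0.97 beside 0.06 and -0.03 for all genes. Of all genes 20.9% fell in wild-type and 22.4% in knockout cells at the same threshold, and 47.8% and 48.2% had an unadjusted p under 0.05. Cmpk2, a nucleotide kinase gene beside the antiviral gene Rsad2, changed by -3.11 and -2.67 (limma adjusted p = 4.8e-06 and 4.3e-06). Rsad2 fell by 1.46 in wild-type cells (limma adjusted p = 5.0e-05), and Ifit2 and Ifit1, whose products bind viral RNA, changed by -1.57 and -1.55 in the knockout (limma adjusted p = 1.1e-07 and 1.8e-04). The means of these genes were also lower in the other genotype. Rsad2 went from 8.57 to 7.16 in knockout cells, and Ifit2 from 9.68 to 8.52 and Ifit1 from 9.09 to 7.69 in wild-type cells. Mx1, an antiviral GTPase gene, stood at a mean of 4.51 in activated wild-type cells, which is near background, after a change of -2.09 (limma adjusted p = 7.5e-06). In knockout cells the Mx1 mean went from 6.65 to 5.19. The macrophage marker sums fell between the same arrays, and their part in these values was not tested.

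The list of IRF1 targets held genes of antigen presentation, which mostly fell, and other targets, some of which rose. All 16 listed genes were measured, and 4 rose and 9 fell in wild-type cells and 4 rose and 10 fell in knockout cells, with medians of -0.24 and -0.33, against 20.2% higher and 20.9% lower of all genes in wild-type cells, with 20.7% and 22.4% in knockout cells. Tap1, Tap2, Tapbp, Psmb8, Psmb9, Psmb10, B2m, H2-K1, H2-D1 and Nlrc5, named after their values were seen, had negative differences in each genotype, and all but Tap1 in wild-type cells and B2m in either passed. Psmb10, an immunoproteasome subunit gene, went from 11.29 to 10.32 in wild-type and from 11.14 to 10.20 in knockout means (limma adjusted p = 5.7e-05 and 2.0e-05). The GTPase gene Gbp2 rose by 2.08 and 2.15, the PD-L1 gene Cd274 by 1.64 and 1.59, and the chemokine gene Cxcl10 by 1.12 and 1.96 (limma adjusted p = 4.4e-07, 5.8e-08, 1.2e-06, 3.2e-07, 3.0e-04 and 4.9e-07). The wild-type falls numbered 4 with array weights or without activated replicate 1, and 5 without naive replicate 1. Between genotypes none of the 16 passed, with 16 negative and 0 positive differences in naive cells (median -0.06, all genes 0.01) and 14 negative and 2 positive in activated cells (median -0.11, all genes -0.02). The genes share arrays, so their signs are not independent. Wild-type naive replicate 1 was high for some, such as Gbp2 (11.00, others 10.35 and 10.35) and Cd274 (8.36, others 7.99 and 7.97). It was not for B2m (13.60, others 13.59 and 13.57). Over the alternatives of the closing section the medians ran from -0.10 to -0.02 in naive and from -0.16 to -0.04 in activated cells.

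Genes listed as dependent on IRF4 in T cells mostly rose. The list sets no direction for each gene, so its counts are not a measure of IRF4 activity. Of 19 measured genes of 20, 12 rose and 3 fell in wild-type cells and 14 rose and 3 fell in knockout cells, with medians of 0.61 and 0.71. The shares of all genes were 20.2% higher and 20.9% lower in wild-type cells, with 20.7% and 22.4% in knockout cells. Gzmb, which encodes the cytotoxic protease granzyme B, rose by 3.99 and 4.81 (limma adjusted p = 5.9e-07 and 2.1e-08), the hexokinase gene Hk2 by 2.87 and 3.27 (limma adjusted p = 2.4e-07 and 1.3e-08) and the cytokine gene Il4 by 2.50 and 2.96 (limma adjusted p = 9.7e-07 and 4.2e-08). The 3 that fell in each genotype were Ctla4, Slc2a3 and Foxo1, which encode an inhibitory receptor, a glucose transporter and a transcription factor of resting T cells; they are named because the count was small. Their differences were -1.33, -1.06 and -1.87 in wild-type cells, and in knockout cells they were -1.87, -1.27 and -1.84.

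Of 11 measured regulators of Irf4 transcription among 13 listed, 4 rose and 5 fell in each genotype, with medians of 0.10 and 0.11, where 41.1% and 43.2% of all genes passed. The NF-kappaB genes Nfkb2 and Rel rose by 1.33 and 1.28 in wild-type (limma adjusted p = 1.8e-05 and 1.4e-05) and by 1.40 and 1.38 in the knockout (limma adjusted p = 2.7e-06 and 1.6e-06), while Mitf changed by -0.94 and -1.18 (limma adjusted p = 4.9e-05 and 1.5e-06). Ikzf1 and Ikzf3 encode transcription factors whose human forms are degraded through human cereblon in the presence of thalidomide analogs. Both genes were chosen after their values were seen. Ikzf1 changed by -0.68 and -0.83 on activation (limma adjusted p = 2.4e-05 and 8.9e-07) and Ikzf3 did not pass (0.17 and 0.11, limma adjusted p = 0.11 and 0.248). Between genotypes their differences were 0.03 and 0.06 in naive and -0.12 and -0.00 in activated cells.

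**Figure D4:**
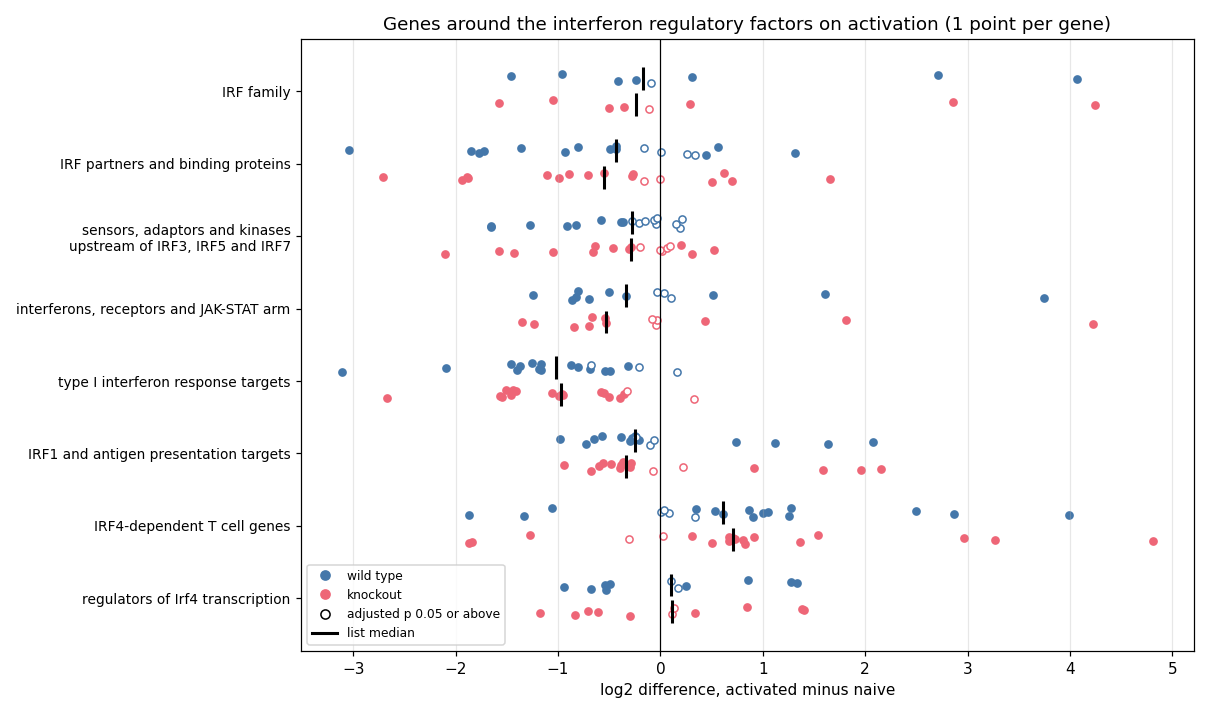
Activated minus naive difference (log2) of each measured gene in the 8 lists, wild type in blue and knockout in red; filled points passed at an adjusted p under 0.05 and the black bar is the list's median. The bar of the type I interferon targets lies at -1.02 and -0.97 and that of the IRF4-dependent genes at 0.61 and 0.71.

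Outside the family, Crbn was the sole gene of the 8 lists that passed between genotypes, and 0 of the 8 lists' genes passed in the interaction by limma. Among the marker genes Klra8, an NK cell receptor gene, was higher in naive knockout cells (0.94, limma adjusted p = 0.0384) and Ccl17 in activated knockout cells (0.82, limma adjusted p = 0.018). The Klra8 call was lost without moderation, with probe sets averaged, with only the arrays compared, and on leaving out any 1 of 8 arrays, which were all activated arrays, knockout naive replicate 2 and wild-type naive replicates 1 and 2. The Ccl17 call was lost without moderation, with only the arrays compared, with array weights, with the replicate number as a block, without knockout activated replicate 3 and without wild-type activated replicate 1. T cell markers also moved with activation: the sum of 9 measured of 10 was 14.98 to 15.16 over the naive and 14.17 to 14.36 over the activated arrays. Sums of neutrophil markers ranged from 8.97 to 9.27 among the wild-type naive and from 8.58 to 10.50 among the knockout naive arrays. Sums of 5 measured erythroid markers of 7 ranged from 10.86 to 12.79 among the wild-type naive and from 9.15 to 11.33 among the knockout naive arrays, with a median genotype difference of -1.59; 0 of the 5 passed by limma and 4 were lower with the replicate number as a block. The part of these cells in the genotype values was not tested.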

How the data were processed

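RNA of purified splenic T cells was hybridised to one-colour Affymetrix mouse arrays, 1 per sample. Per the submitters' processing notes the tools were GCOS, RMA and Partek (versions not given in the sources used here). Deposited values are log2 levels of 45101 probe sets, used unchanged (0 missing, array medians 5.84 to 5.89). RMA fits all arrays to a common distribution, so a change in total RNA per cell is not visible. Precision is limited by the number of arrays: the median SE of a genotype difference was 0.088 in naive and 0.099 in activated cells.

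Of the probe sets, 34958 carried 1 symbol, 932 several and 9211 none in the platform annotation; 34754 had an Entrez number in the RefSeq gene table and 0 symbols changed. The brightest probe set over all arrays stood for each of 18194 genes, 9012 of which had more than 1. Group means were fitted to all 11 arrays with limma 3.58.1 in R 4.3.3 (residual degrees of freedom 7, prior 5.46), and 6 comparisons were drawn and adjusted by Benjamini-Hochberg over all genes. The same fit over 34958 probe sets gave the values of single probe sets. Motifs and figures used Python 3.11.15 and matplotlib 3.10.9. The fit was tested on simulated data.

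The members and the 17 lists (207 entries, 190 measured) were chosen with earlier results of these data known. Named were all members, up to 3 list genes of largest change past the threshold in each activation, list genes past it between genotypes, and the 3 genes nearest each member; other names are given as examples chosen after their values were seen. The 10 alternative settings and leaving out each array are in the closing section. Protein sequences were not used here.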

Additional observations from a re-analysis of the deposited data

How the results depend on the processing

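Of 992 member values recomputed under the alternatives, 918 kept their direction and side of the threshold, 63 that had not passed changed sign (the largest then 0.20 in size), 10 were no longer past the threshold and 1 reversed. The reversal was Irf3 in wild-type activation, at 0.06 in the mean of its probe sets. Irf2, Irf4, Irf7, Irf8 and Irf9 passed in all 21 alternatives of each activation, Irf3 in 15 and 20, and Irf5 in 19 and 19. Irf4 ranged from 2.92 to 4.24 in wild-type and from 3.22 to 4.34 in knockout cells. Between genotypes and in the interaction 0 members passed under any alternative, and 5 to 7 passed in wild-type and 6 to 7 in knockout activation.

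Counts over all genes between genotypes moved more. The main counts were 27 in naive cells, 11 in activated cells, 19 on the mean of both states and 0 in the interaction, with 7475 and 7851 in the activations. With all probe sets tested they were 55, 22 and 54, and 13208 and 14560 in the activations, as more features were tested. Genes above the median level gave 15 in naive and 7 in activated cells. A variance trend with a robust prior gave 43 and centring on the median 41 in naive cells. Without moderation the counts were 10, 0 and 5, and 1 in the interaction. With only the arrays compared they were 13 and 2, and with array weights 1237 and 3. Leaving out each array in turn gave 10 to 341 in naive cells (341 without wild-type naive replicate 3), 1 to 28 in activated cells, 9 to 20 on the mean and 0 to 4 in the interaction. Higher genes made up 51.9% of the naive calls and 68.3% after centring, and 57.9% of the mean calls and 68.2% after quantile normalization. The cause of these changes was not tested.

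The replicate number as a block gave 277 genes in naive cells and 1 in the interaction, and moved no other count of members or of all genes by over 1.5 times. Among marker genes it gave 4 erythroid genes lower in place of 0 and 2 NK genes higher in place of 1 in naive cells, and 0 dendritic cell genes in place of 1 in activated cells. Deviations of same-numbered arrays correlated between -0.30 and 0.39, and the labels do not say whether such arrays share an animal or a day. The 2 wild-type activated arrays limit the activated comparison.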
